A study of Mus musculus with 8 samples.

Results

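The exocyst is a protein complex that tethers secretory vesicles to the plasma membrane before SNARE proteins fuse the membranes. Exoc7 (Exo70) and Exoc1 (Sec3) hold it to phosphoinositides of the plasma membrane, Exoc2 (Sec5) and Exoc8 (Exo84) bind active Ral GTPases, Exoc6 (Sec15) and its paralog Exoc6b bind Rab11 on the vesicle, and Exoc3 (Sec6), Exoc4 (Sec8) and Exoc5 (Sec10) complete the complex. In fibroblasts it delivers membrane and receptors to the cell surface, and Exoc7 takes part in the outgrowth of the leading edge during migration.

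The 9 genes of the exocyst were looked up by symbol among the 25697 probes of an expression array, and 5 of them, Exoc2, Exoc3, Exoc4, Exoc7 and Exoc8, had a probe, 1 each. The complex was chosen by the strain difference of Exoc7, which passed adjustment in the test named in the methods, which compares the strains by each probe's own spread, so the strain difference of Exoc7 and the spread behind it are described here without a test of their own. No probe carried the symbols Exoc1, Exoc5, Exoc6 and Exoc6b. The older symbols Sec10l1 and Sec15l1, which RefSeq pairs with Exoc5 and Exoc6, had 1 probe each, both detected on 0 of 8 arrays, at intensities of -6.22 to 0.318 and of 3.96 to 12.4. The level of these subunits in the cells was therefore not measured here.

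The cells were primary skin fibroblasts of 12-month-old mice, grown in DMEM with 10% FCS and used after the first passage. Both strains are conplastic, with the nuclear genome of C57BL/6J and the mitochondrial genome of a donor strain. The Nd2-mutant strain, C57BL/6J-mtALR/LtJ, carries a mutation in the mitochondrial gene of NADH dehydrogenase subunit 2, a part of respiratory complex I, and the control strain is C57BL/6J-mtAKR/J. There were 4 mice of each strain, 2 males and 2 females, with 1 array per mouse, and mice are named here by their number in the labels. The p-value of a difference sets it against the spread between these mice. In the limma model each probe's spread is first moved toward a value common to all probes. The study compared the strains because mutations of the respiratory chain may change fibroblast aging.

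Values are normalized intensities on the linear scale, in arbitrary units, and differences are on the scale of log2(intensity + 16), with their standard error (SE). A probe was called detected at a detection p-value under 0.01 and tested if all 4 arrays of at least 1 strain detected it, which held for 10414 probes of 8003 genes. All 5 exocyst probes were detected on 8 of 8 arrays. Between 10663 and 11350 probes were detected per array, with each Nd2-mutant array above each control array. The array of control mouse 15 stood apart from the others, with an average Pearson's r of 0.934 with each of the other arrays against 0.963 to 0.974 for the rest.

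The 8 fibroblast markers looked up were detected on all 8 arrays, and their summed intensity of 34697 to 39666 in Nd2-mutant mice overlapped that of 28799 to 42013 in controls. Of 10 macrophage markers, 4 were detected on all arrays and the leukocyte gene Ptprc on none, and their sum was 1790 in Nd2-mutant mouse 35, at most 429 in the other Nd2-mutant mice and 300.3 to 748 in controls. The sum of 5 smooth muscle and pericyte markers was 91.3 to 129 in Nd2-mutant mice and 141 to 445 in controls, without overlap, with 3 of them detected on all arrays and Cnn1 and Rgs5 on none. Sums of 7 keratinocyte markers (198 to 1185 against 325 to 952), 5 endothelial markers (75.1 to 167 against 61.3 to 259) and 4 adipocyte markers (0.332 to 11.7 against 1.47 to 7.49) overlapped between the strains, and none of the adipocyte markers was detected on all arrays. In RNA of whole cultures, fewer cells of a type and less RNA per cell cannot be told apart.

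Exoc7, the subunit that binds the plasma membrane, was higher in each Nd2-mutant mouse than in each control, by a ratio of 1.30. Its probe (ILMN_1252619, chromosome 11) read 102 in mouse 28, 102 in mouse 32, 97.7 in mouse 34 and 99.3 in mouse 35 of the Nd2-mutant strain. In control mice 15, 16, 17 and 37 it read 77.7, 75.9, 77.5 and 76.5. The strains did not overlap, and the lowest Nd2-mutant value lay 20.01 above the highest control value. The means were 100.1 ± 1.92 and 76.9 ± 0.866 (SD, n = 4 each), which is a difference of 0.32 on the log2 scale, 0.34 in males and 0.30 in females. RefSeq lists 8 transcripts of Exoc7, and which of them the probe reads is not known here.

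Exoc7 stood out less by the size of its difference than by how little mice of the same strain differed. Among the tested probes, 2187 of 10414 had a strain difference at least as large in either direction, and the median absolute difference was 0.16. The within-strain SD of Exoc7 was 0.0194 on the log2 scale, the smallest of the 10414 tested probes, where the next smallest was 0.0328 and the median 0.260. Among the 500 probes nearest to Exoc7 in mean, which are a part of the tested probes, the median SD was 0.297. The SD of Exoc7 ranked first or, without mouse 28, 15 or 16, second from the smallest when single mice were left out. It was also the smallest with 1 or 50 in place of 16 in the log and among probes detected on any array. Probes detected on all arrays are a part of the tested probes, so its first rank among them was given beforehand. All these ranks reuse the values by which Exoc7 was chosen, and they are a description.

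**Figure D1:**
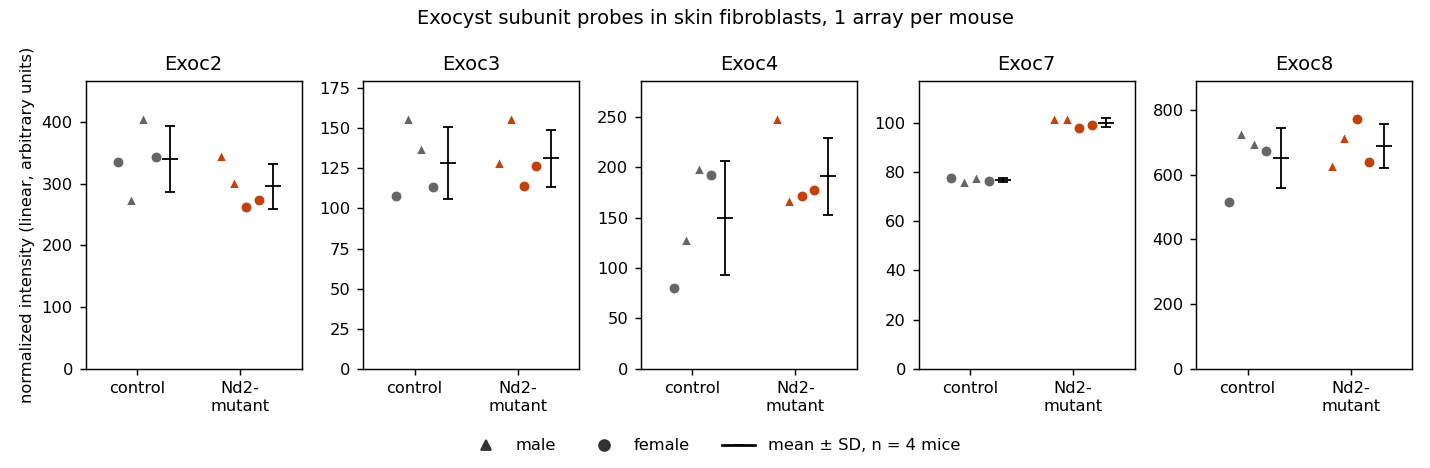
Normalized intensity (linear, arbitrary units) of the 5 exocyst probes, each panel with its own axis starting at 0; points are mice, triangles males and circles females, and bars are mean ± SD of 4 mice. Exoc7 is the probe whose Nd2-mutant values, 97.7 to 102, all lie above the control values, 75.9 to 77.7, while the 4 others overlap between the strains.

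The values by which Exoc7 was chosen, and those of the limma model for the same difference, are given as a description. The methods' t-test, run on the log2 values, gave an adjusted p of 0.00416, the one probe of 10414 (0.0096%) under 0.05, and the next probe, P4ha3, was at 0.358. In the limma model, which moves each SD toward the value common to all probes, the SD of Exoc7 became 0.165 and the SE of its difference 0.12, and its adjusted p was 0.639. Under limma 0 of 5 exocyst probes and 0% of all tested probes passed adjustment. At an unadjusted p under 0.05 the count was 1 of 5, Exoc7, beside 795 of all tested probes (7.63%). Exoc7 was also the 1 exocyst probe of 5 without overlap between the strains, beside 4.37% of all tested probes. Since Exoc7 chose the complex, nothing is read from these counts.

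**Figure D2:**
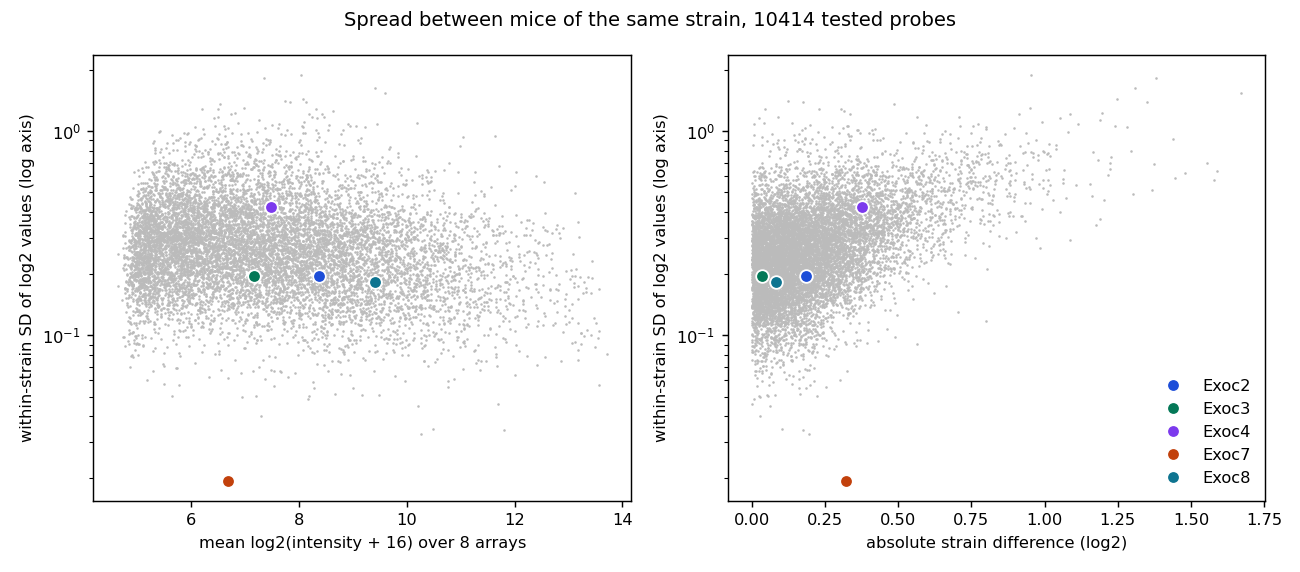
Within-strain SD of log2 values (log axis) of 10414 tested probes against their mean log2 value over 8 arrays (left) and their absolute strain difference on the log2 scale (right), with the 5 exocyst probes in colour. Exoc7, at an SD of 0.0194, lies below all other probes, whereas its strain difference of 0.32 lies among those of many probes.

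Of the 2 Ral-binding subunits, Exoc2 was lower and Exoc8 was higher on average in Nd2-mutant mice, and neither difference exceeded the spread between mice. The Exoc2 probe (ILMN_2752948, chromosome 13) read 345, 302, 263 and 273 in Nd2-mutant mice 28, 32, 34 and 35 and 335, 274, 406 and 344 in control mice 15, 16, 17 and 37. The highest value was that of control mouse 17 and the strains overlapped, with means of 296 ± 36.9 and 339.9 ± 53.8 (SD, n = 4). The difference was -0.19 (SE 0.16, 95% interval -0.53 to 0.16, limma adjusted p = 0.729, exact permutation p = 0.229). It was -0.10 without mouse 17, -0.28 without mouse 16 and -0.05 in males alone.

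The Exoc8 probe (ILMN_2689560, chromosome 8) read 627, 715, 774 and 638 in the same Nd2-mutant mice and 515, 727, 695 and 672 in the controls. Mouse 15 had the lowest value and Nd2-mutant mouse 34 the highest, and the other values overlapped. The means of 689 ± 69.1 and 652 ± 94.0 (SD, n = 4) differed by 0.08 (SE 0.15, 95% interval -0.25 to 0.42, limma adjusted p = 0.875, exact permutation p = 0.629), and without mouse 15 the difference was -0.02.

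On the log2 scale, though not by ratio of means, Exoc4, a subunit of the core, had the largest average difference of the 5 subunits. Exoc4 also had the largest spread on that scale. Its probe (ILMN_1222773, chromosome 6) read 248, 166, 172 and 178 in Nd2-mutant mice 28, 32, 34 and 35 and 79.7, 128, 199 and 193 in control mice 15, 16, 17 and 37. Mouse 28 lay above and mice 15 and 16 below the range of the rest, and the strains overlapped. The means of 191 ± 38.5 and 149.8 ± 56.6 (SD, n = 4) differed by 0.38 (SE 0.26, 95% interval -0.19 to 0.94, limma adjusted p = 0.687, exact permutation p = 0.286). The difference fell to 0.14 without mouse 15, to 0.25 without mouse 28, to 0.16 without mice 15 and 35 and to 0.07 with arrays weighted by their quality. It rose to 0.52 without mouse 17 and to 0.51 without mouse 37.

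Exoc3, which binds SNARE proteins and their regulators, had nearly the same average in both strains. Its probe (ILMN_2777284, chromosome 13) read 129, 156, 114 and 126 in the Nd2-mutant mice and 108, 156, 137 and 113 in the controls. The highest mouse of each strain was at 156. The means of 131 ± 17.7 and 128 ± 22.2 (SD, n = 4) differed by 0.03 (SE 0.16, 95% interval -0.31 to 0.38, limma adjusted p = 0.955, exact permutation p = 0.857), and the sign of so small a difference changed when single mice were left out.

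The spread between mice of the same strain differed among the subunits. Exoc2, Exoc3 and Exoc8 had within-strain SDs of 0.196, 0.195 and 0.183, at the percentiles 27.5, 27.5 and 22.8 of all tested probes. Exoc4 was at 0.425, percentile 85.0. Exoc7 and Exoc4 therefore had the smallest and the largest spread of the 5 subunits at nearly the same strain difference, 0.32 and 0.38. On the linear scale the SD of Exoc7 was 1.92% of the Nd2-mutant mean and 1.13% of the control mean, and that of Exoc4 20.2% and 37.8%.

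Male and female mice were compared as a contrast that did not choose the complex, with strain as a term of the model. Exoc3 was higher in each of the 4 males than in each of the 4 females. Males read 129, 156, 156 and 137 and females 114, 126, 108 and 113, with means of 144 ± 13.8 and 115 ± 7.95 (SD, n = 4) and a ratio of 1.25. The difference of 0.28 (SE 0.13, 95% interval -0.02 to 0.59) did not pass adjustment over all probes (limma adjusted p = 0.629). Its exact permutation p was 0.0286, the smallest that 4 against 4 mice can give. Unlike the model, this permutation took all 8 mice without regard to strain. Exoc3 was the 1 exocyst probe of 5 without overlap between the sexes, beside 5.16% of all tested probes.

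For Exoc2, Exoc4 and Exoc8 the male minus female differences were 0.12, 0.26 and 0.10, with exact permutation p-values of 0.429, 0.543 and 0.543. With single mice left out they ran from 0.04 (without mouse 17) to 0.25 (without mouse 16) for Exoc2, from 0.02 (without mouse 15) to 0.47 (without mouse 37) for Exoc4 and from -0.01 (without mouse 15) to 0.19 (without mouse 34) for Exoc8. Under limma 0 of 5 exocyst probes and 0.0192% of all probes passed adjustment for sex, and at an unadjusted p under 0.05 these were 0 of 5 and 8.31%. Exoc7 differed between the sexes by 0.02 on the log2 scale, a value that its small within-strain spread limits from the start. The strain difference of no exocyst probe differed detectably between males and females. The interaction was largest for Exoc8, at -0.33 (SE 0.31), with a strain difference of -0.08 in males and 0.25 in females, and for Exoc2, at 0.28 (SE 0.33). All limma adjusted p-values for the interaction were close to 1 (0.9999), with 0 of 5 exocyst probes under 0.05 adjusted or unadjusted, beside 0.0096% and 1.77% of all tested probes.

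**Figure D3:**
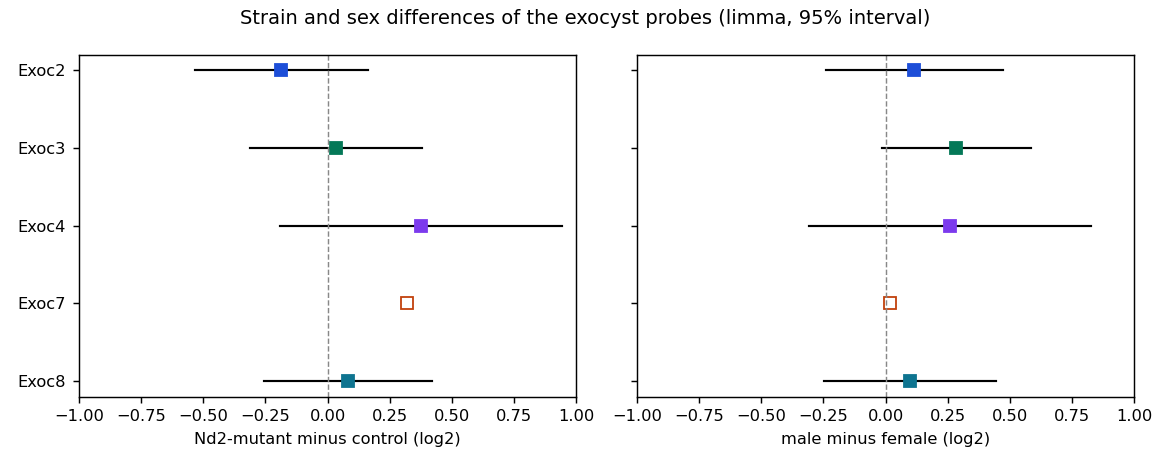
Differences on the log2 scale between the strains (left) and the sexes (right) for the 5 exocyst probes; filled squares are limma estimates with 95% intervals, and the open squares of Exoc7 have none because its strain difference and spread chose the complex. The interval of Exoc3 for sex, -0.02 to 0.59, lies mostly above 0, and all intervals drawn include 0.

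No pair of subunits passed a test for varying together from mouse to mouse. Over the 8 mice, Pearson's r among Exoc2, Exoc3, Exoc4 and Exoc8 ranged from -0.35 for Exoc2 with Exoc8 to 0.50 for Exoc4 with Exoc8, and the smallest permutation p adjusted over the 6 pairs was 0.662 for r and 0.486 for Spearman's rho. The pair Exoc4 and Exoc8 had r = 0.50 (permutation p = 0.209) but rho = -0.17 (permutation p = 0.703), and without mice 15 and 28 its r was -0.39. Mouse 15 was the lowest in both subunits, at 79.7 and 515. Mouse 28, at 248 and 627, was the highest in Exoc4 but not in Exoc8. The r without mouse 15 alone was not computed. Exoc3 and Exoc8 had r = 0.49 (permutation p = 0.221) and rho = 0.48 (permutation p = 0.243), and r = 0.32 without mice 32 and 16. Other pairs moved away from 0 when the 2 mice farthest from the median were left out, Exoc3 and Exoc4 from r = 0.19 to 0.69 without mice 32 and 16 and Exoc2 and Exoc3 from r = -0.12 to -0.63 without mice 17 and 34. No pooled correlation with Exoc7 is given, since its values form separate groups by strain.

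The genes around the exocyst were described in 5 lists holding 75 tested probes. No probe of these lists passed limma's adjustment for strain. At an unadjusted p under 0.05 there were 6 (8.00%, against 7.63% of all tested probes), and 5 probes did not overlap between the strains (6.67%, against 4.37%), 3 of them higher and 2 lower in Nd2-mutant mice. Ralgds, in both counts, and a probe of Napa, in the first, were tested only through the Nd2-mutant strain, where they are higher. The median strain difference of all tested probes was 0.00.

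Of 14 GTPases that bind or recruit the exocyst, 12 were tested with 16 probes, of which 14 were higher on average in Nd2-mutant mice and 2 lower, where 50.2% of all tested probes were higher. The list's median difference was 0.13, and 0.02 without mouse 15. Rala, whose active form binds Exoc2 and Exoc8, was at 51.3 ± 4.69 in Nd2-mutant and 46.9 ± 24.7 in control mice (SD, n = 4), a difference of 0.20 (SE 0.28). Its homolog Ralb differed by -0.02 (SE 0.17). Rab11a, the GTPase of recycling endosomes that binds Exoc6, was at 66.0 ± 13.5 against 50.6 ± 31.7 (SD, n = 4), with overlap. It was detected on 4 of 4 Nd2-mutant but 3 of 4 control arrays. It was thus tested through the group where it is higher, and no size is given for its difference. The same holds for 1 of 2 probes of Rab10, and both enter the count of 14 higher probes. Cdc42 and Rac1, which organize actin at the cell edge, differed by 0.12 (SE 0.15) and 0.27 (SE 0.16), and Arf6 by 0.13 (SE 0.24). Rab35, which acts in recycling to the plasma membrane, was the 1 GTPase without overlap, at 772 ± 59.4 against 650.0 ± 54.1 (SD, n = 4), a difference of 0.24 (SE 0.13, limma adjusted p = 0.648).

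Of 24 regulators of Ral and Rab GTPases and exocyst partners, 13 were tested with 17 probes, 6 higher and 11 lower, at a median of -0.13 (-0.01 without mouse 15). An unadjusted p under 0.05 was reached by 3 of the 17 probes (17.6%, against 7.63% of all tested probes), and the strains did not overlap in 4 (23.5%, against 4.37%), 2 higher and 2 lower, each at a limma adjusted p of 0.639. Ralgds, an exchange factor that activates Ral, was at 33.8 ± 7.20 in Nd2-mutant and 10.8 ± 7.50 in control mice (SD, n = 4). It was detected on 4 of 4 Nd2-mutant but 2 of 4 control arrays, so that it was tested through the group where it is high, and no size is given for its difference. Ralgds is counted in the 3, the 4 and the 6 higher probes. Rab3il1 and Rab11fip2, detected on 3 of 4 control arrays, also enter the 6 higher. Ralgps1, detected on 3 of 4 Nd2-mutant arrays, enters the 11 lower. Nothing is therefore read from the shares of this list. Ralgapb, a subunit of the complex that inactivates Ral, listed as B230339M05Rik, was at 227 ± 19.1 against 297 ± 14.9, a difference of -0.37 (SE 0.13), while its second probe overlapped at -0.20.

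Myo5a, a myosin that carries vesicles along actin, was at 80.8 ± 8.36 against 61.3 ± 6.29, a difference of 0.32 (SE 0.13) that equals that of Exoc7 at a wider spread. Rab11fip3, an effector of Rab11, was at 110.2 ± 11.2 against 139.8 ± 23.3, a difference of -0.30 (SE 0.15).

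**Figure D4:**
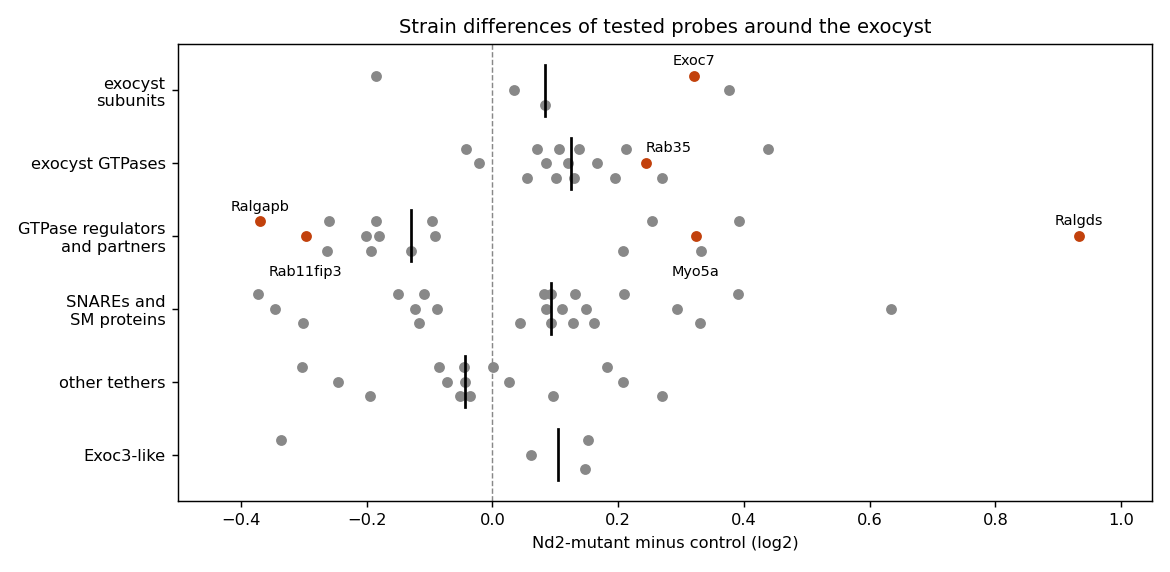
Strain difference (Nd2-mutant minus control, log2) of each tested probe of the exocyst and of 5 lists of genes around it. Points are probes, shifted vertically only for legibility, and black bars are list medians. Named orange points are probes whose strains do not overlap. The points of Ralgds, Napa at 0.63, Stx3 at 0.16 and Rint1 at 0.0009 were not detected on 2 of 4 control arrays. Rab11a and some others were detected on 3 of 4. The named probes other than Ralgds lie between -0.37 and 0.32, and the position of Ralgds depends on the constant added before the log.

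Of 18 SNAREs and their partners, which fuse the membranes after tethering, 15 were tested with 23 probes, 15 higher and 8 lower, at a median of 0.09 (-0.06 without mouse 15). The strains overlapped in all 23, and 2 (8.70%, against 7.63% of all tested probes) had an unadjusted p under 0.05, Vamp4 at a difference of 0.33 (SE 0.15) and 1 of 3 probes of Napa, which was detected on 2 of 4 control arrays. Of 16 subunits of other tethering complexes (COG, GARP and NRZ), which act at the Golgi apparatus, endosomes and endoplasmic reticulum, 11 were tested with 15 probes, 6 higher and 9 lower, at a median of -0.04 (0.02 without mouse 15), and all 15 overlapped between the strains. Of 4 Exoc3-like genes, 2 were tested with 4 probes, all with overlap, 3 higher and 1 lower, at a median of 0.10 that ran from -0.07 without mouse 37 to 0.29 without mouse 15. Probes without overlap were 4.37% of all tested probes, so that none among so few probes sets these lists apart from the rest.

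Some arrays and marker sums moved with strain as Exoc7 did. The sum of the smooth muscle and pericyte markers was lower and the number of detected probes higher in each Nd2-mutant mouse than in each control. Their part in the strain differences above was not tested. The intensities of Exoc7 in mice 15 and 35, whose array or macrophage markers stood apart, lay at 77.7 and 99.3, and without these mice its strain difference was 0.33 on the log2 scale.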

How the data were processed

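RNA of skin fibroblasts from 8 mice, 4 per strain, was labelled with the TargetAmp-Nano kit and hybridized to Illumina MouseRef-8 v2.0 arrays. The authors extracted and quantile normalized the data in GenomeStudio with background subtraction, which left linear values as the deposited intensity. The detection p-value beside each intensity was also deposited by them. The deposited table named as non-normalized held the same values as the normalized one, so normexp, another normalization and the chip as a block were not run. Quantile normalization gives all arrays nearly one distribution, so a shift common to most probes is not visible.

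The labels gave strain, sex and mouse number. Intensities below 0 were set to 0, 16 was added and log2 taken. Probes with a detection p-value under 0.01 on all 4 arrays of at least 1 strain were tested for differences in either direction with limma 3.58.1 (R 4.3.3), and p-values were adjusted by Benjamini-Hochberg over 10414 probes, at a threshold of 0.05. Exact permutation tests of 4 against 4 mice, 2-sided, were run for single probes other than Exoc7. Those for sex did not take strain into account. The methods' t-test, other added constants and filters, array weights and single mice left out were alternatives. Leaving out mice 15 and 35 together was added after seeing the data. The fits were tested on simulated data.

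Every exocyst probe is named, and of each list the probes without overlap between strains, at most 5. The 5 probes most like Exoc7 by Pearson's r are also named. 1 gene of the lists was left out of all counts and is not reported here, and list genes without a value in the text enter the counts and medians alone. Older symbols were matched through RefSeq (GRCm38.p6). The members and lists were chosen with earlier results of these data known. The number of arrays limits the precision.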

Additional observations from a re-analysis of the deposited data

Results flagged for a closer look

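Exoc4 in Nd2-mutant mouse 28, at an intensity of 248, lay far above the other Nd2-mutant mice at 166 to 178. On the log2 scale its gap to the nearest of them was 0.836 of the whole range of the group, which Dixon's test marks. This was the 1 such value in the 10 groups of 4 mice checked (5 probes in 2 strains), and chance alone marks about 1 in 20 groups. Without mouse 28 the strain difference of Exoc4 was 0.25 in place of 0.38 on the log2 scale.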

How the results depend on the processing

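Exoc7 was higher in Nd2-mutant mice in 24 of 24 settings, by 0.24 to 0.38 on the log2 scale and by 23.2 in linear intensity. Its values do not overlap between the strains, so leaving out mice, other constants, filters or tests could not change this sign. Exoc7 chose the complex, so that its p-values are a description. The number of exocyst probes past adjustment for strain was 0 in the limma fit and 1, Exoc7, in 2 of 23 alternatives, the methods' t-test (adjusted p = 0.00416) and limma with no filter on detection (adjusted p = 0.0134). With no filter, 3 of 25697 probes passed and the SD of Exoc7 was moved to 0.0277, with 0.78 prior degrees of freedom in place of 4.44. Its limma adjusted p was 0.341 to 0.945 in the other alternatives, the lowest without mouse 17. The counts of exocyst probes past adjustment for sex and interaction stayed at 0. Of 270 estimates for single subunits, 12 changed sign, none of them past adjustment. For strain these were Exoc3 without mouse 32, 15 or 37 (range over single mice left out -0.042 to 0.122), in males alone (-0.038) and without mice 15 and 35 (-0.022), and Exoc8 without mouse 15 (range -0.023 to 0.138) and in males alone (-0.083). For sex they were Exoc8 with array weights (-0.013), without mouse 15 (range -0.0097 to 0.186) and without mice 15 and 35 (-0.063), and Exoc4 without mice 15 and 35 (-0.011). Of 100 list medians, 95 moved by less than 1 SD between mice of a strain and 5 by more, and that of the Exoc3-like genes was -0.09 with no filter. The interaction of Exoc4 was 5.28 in linear intensity and -0.11 on the log2 scale. The cause was not tested. No paired analysis was possible because no mouse number occurs in both strains.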

Other observations

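Exoc3-like genes resemble Exoc3 in sequence and are not counted among the exocyst subunits. Tnfaip2, which takes part in membrane protrusions, had 3 probes that differed between the strains by 0.06, 0.15 and 0.15 on the log2 scale, all with overlap. Exoc3l4, listed as 1200009I06Rik, was at 26.5 ± 5.60 in Nd2-mutant and 37.6 ± 6.05 in control mice on the probe that was detected (SD, n = 4), a difference of -0.34 with overlap (limma adjusted p = 0.639). Exoc3l was detected on 1 of 8 arrays, that of control mouse 15, at 22.4. Exoc3l2, listed as 4933417E01Rik, was detected on none.

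The 5 probes whose log2 values followed the Exoc7 probe most closely over the 8 arrays were those of P4ha3, Zmiz1, Maged2, Cnpy3 and Ifi205. P4ha3, which encodes a subunit of the collagen prolyl hydroxylase, was at 154 ± 3.81 in Nd2-mutant and 81.9 ± 10.5 in control mice (SD, n = 4). Maged2 was at 1889 ± 91.2 and 1581 ± 44.7. The others were near the limit of detection in controls, where Zmiz1 and Ifi205 were detected on 0 of 4 and Cnpy3 on 1 of 4 arrays. Zmiz1, Ifi205 and Cnpy3 were thus tested only through the Nd2-mutant strain, where they are higher. The arrays fall into 2 groups by strain for these probes, and no p-value is given. Likeness to Exoc7 therefore ranks probes by the strain difference that chose Exoc7, and nothing is read from it.

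Of the 6 genes next to Exoc7 on its chromosome, 3 on each side, Evpl, Rnf157 and Ubald2 had no matched probe, Galr2 was detected on 0 and Foxj1 on 1 of 8 arrays. Srp68, a subunit of the signal recognition particle, was at 62.9 ± 9.42 in Nd2-mutant and 80.9 ± 17.8 in control mice (SD, n = 4), a difference of -0.29 (SE 0.16, limma adjusted p = 0.650). These neighbours were chosen after the values of Exoc7 were seen.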
